A study of Mus musculus with 12 samples.

Results

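The 8 receptors described here, Gpr34, P2ry10, Gpr183, P2ry12, P2ry13, P2ry14, Sucnr1 and Gpr171, belong to the P2Y-like branch of the G protein-coupled receptors and sense lipids, nucleotides, nucleotide sugars, succinate or a peptide. They were chosen by measured values of these same arrays, because several of them differed with treatment or genotype, so their levels and changes are a description. Where members are counted as called in the fit across all genes, the call describes them and supports nothing, and no p-value is given for a member. A probe set was taken for a member when it was annotated to that symbol and to no other. This gave 9 probe sets for the 8 genes (Gpr183 had 2), out of 45101 probe sets on the array and 15019 genes in the fit, and all 9 passed the filter on low values.

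Receptors of this branch are membrane proteins that signal through G proteins, many of them of the inhibitory class, and several steer cell movement towards a ligand. Gpr183, also known as EBI2, binds a dihydroxylated cholesterol and guides B cells, T cells and splenic DCs between the zones of lymphoid tissue. Gpr34 and P2ry10 are receptors for lysophosphatidylserine, P2ry12 and P2ry13 for ADP, P2ry14 for UDP-sugars, Sucnr1 for succinate, and Gpr171 for a peptide cut from proSAAS.

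Expression was measured on Affymetrix mouse arrays in splenic DCs selected on CD11c beads and purified by flow sorting. The mutant mice carry the Alymphoplasia (aly) mutation of Map3k14, the gene of the kinase NIK, which acts in the non-canonical NF-kB pathway. The controls were heterozygous littermates, called wild type (WT) by the study, so they carry the aly allele on 1 chromosome. Both genotypes were studied without treatment and after an intraperitoneal injection of 25 micrograms of LPS together with 100 micrograms of an agonistic antibody to CD40, with DCs taken 6 hours later. These 4 groups had 3 arrays each, 12 in all. The mutation is present in every cell of the aly mice and not in DCs alone, the agents were given together and cannot be told apart, and neither sex nor age is given in the labels used here. Each array held DCs pooled from 3 mice, so the errors measure the spread between pools and the spread between mice is not seen.

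Values are intensities on a linear scale, and differences are log2(value + 16) with the standard error of the fit. A gene is called where limma gave an adjusted p under 0.05 (Benjamini-Hochberg, over all 15019 genes). Levels of different probe sets are not compared with each other. Summed over 8 pan-DC genes, intensity was 46454.8 to 53190.8 in untreated WT and 32215.4 to 40210.5 in treated WT. In aly it was 53645.2 to 57542.9 untreated and 41967.3 to 99019.6 treated, highest on treated aly replicate 1. Treated WT arrays lay below all others in this sum. It adds raw intensities, so the brightest genes weigh most and single genes can differ from it. Itgax (229.7) and Flt3 (267.4), which are in the sum, had their lowest values of all arrays on treated aly replicate 1. Itgax was also higher on treated WT replicate 2 (2135.1) than on untreated aly replicate 3 (1770.8). Single values of the other pan-DC genes are not given here, and the sum is not read as a measure of DC content. RNA integrity differed between genotypes: the mean log2 ratio of 3' to 5' probe sets of Actb and Gapdh was 1.57 ± 0.18 in WT and 3.08 ± 1.31 in aly (SD, n = 6 arrays each). Treated aly replicate 1 stood apart, with an Actb ratio of 55.82 against 1.386 to 5.921 on the other arrays, and its rank correlation with them was 0.577 to 0.665. The arrays labelled replicate 1 also carried lower levels of the poly-A spike-in controls (4.292 to 19.77) than the others (50.74 to 460.2), and for treatment and genotype differences of the members the values within each set are given where they differ in direction. The part of these differences in the results below was not tested.

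Treatment of WT mice separated the receptors into some with higher and some with lower transcript levels. Of the 8 genes, 2 were called higher (P2ry10 and Gpr183), against 4.95% of all genes, and 2 were called lower (Gpr34 and P2ry14), against 4.75% of all genes. The arrays of the WT groups did not overlap for 2 members that were higher (14.3% of all genes) and 3 that were lower (22.1% of all genes). Because treatment and genotype differences both helped to choose the members, nothing is read from these counts or from those of the other contrasts. In aly DCs, 0 members were called by limma after treatment, where 0.453% of all genes were called higher and 0.0333% lower; 2 members passed an unadjusted p under 0.05, against 12.9% of all genes. The arrays of the aly groups did not overlap for 2 members that were higher (6.02% of all genes) and 1 that was lower (8.56% of all genes).

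Between untreated genotypes 6 of the 8 members had the lower value in aly, and between treated genotypes 4 did. Among untreated arrays 2 members were called lower in aly (P2ry10 and Sucnr1), against 0.0533% of all genes, and none higher, against 0.499%; 6 passed an unadjusted p under 0.05, against 10.5% of all genes. Groups did not overlap for 5 members lower in aly (9.86% of all genes) and 1 higher (12.9%). Among treated arrays 2 members were called lower (Gpr183 and P2ry10), against 2.64% of all genes, and none higher, against 2.74%; 3 passed an unadjusted p under 0.05, against 22.9% of all genes. Groups did not overlap for 2 members, both lower in aly (10.1% of all genes), and for 0 members higher in aly (14.1%). The response to treatment differed between genotypes for 0 of the 8 members by limma, against 0.153% of all genes, and 3 members passed an unadjusted p under 0.05, against 8.02% of all genes. The median log2 difference over the members was 0.47 with treatment of WT mice, 0.07 with that of aly mice, -1.36 for untreated aly minus WT and -0.24 for treated aly minus WT, and over all genes it was -0.12, -0.08, 0.10 and 0.19. With each array centred on its median, the all-gene medians of the genotype comparisons moved to -0.15 (untreated) and -0.16 (treated), and 16.6% of the treated genotype calls over all genes were higher in aly, against 50.9% as deposited. Between untreated genotypes the centring left 0 of 83 calls over all genes, so that those of P2ry10 (-2.13 with centring) and Sucnr1 (-3.47) were lost. In WT the share of treatment calls that were higher was 51% as deposited and 68.2% with this centring.

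**Figure D1:**
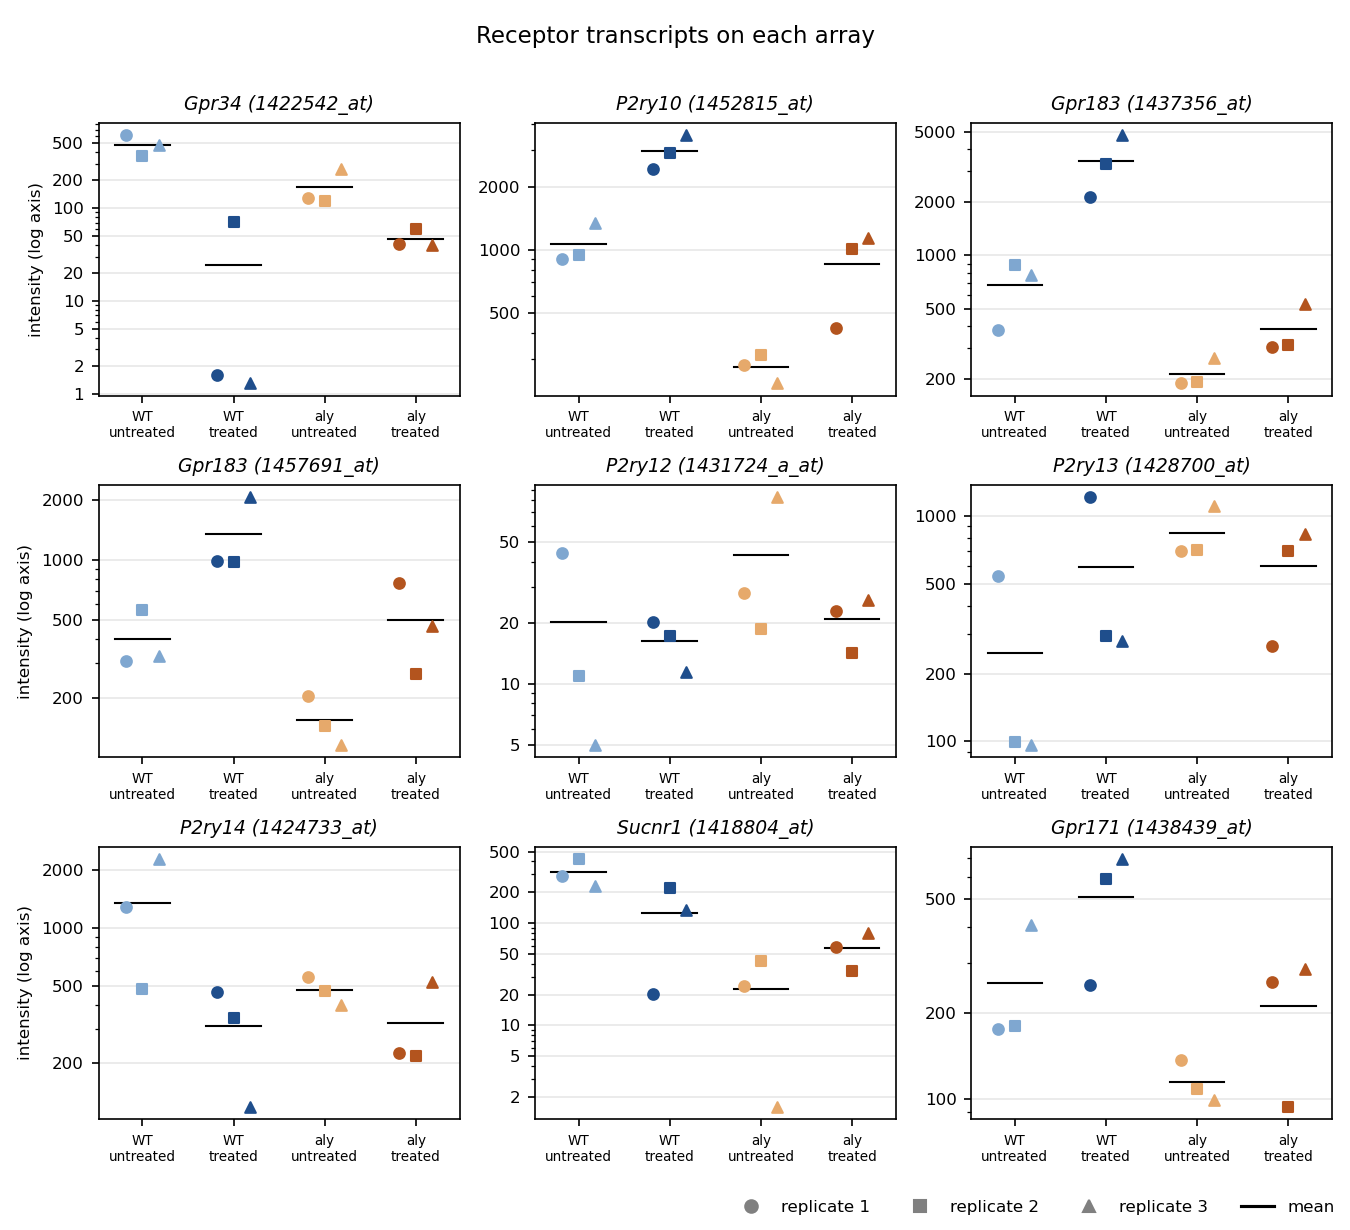
Intensity of each receptor probe set on each of the 12 arrays (log axis), by group. Points are arrays, with the symbol giving the replicate number, and the line is the mean of 3 arrays; P2ry10, Gpr171 and both probe sets of Gpr183 have their highest mean in treated WT, and Gpr34 has its highest in untreated WT.

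Gpr183 and P2ry10 were highest in treated WT DCs, without overlap with any other group. Over the 12 arrays their log2 values had a correlation of r = 0.92, the highest of any pair of members, as a description of arrays that share groups and scaling. The 250 bases before the start site of each are shown because these genes moved together, beside those of Sucnr1, which was lower in untreated aly as they were. RefSeq sequences (mouse build GRCm38.p6) are given 5' to 3' on the strand of the gene, with matches to a short motif in capitals:
P2ry10 (chrX:107088242-107088491, plus strand): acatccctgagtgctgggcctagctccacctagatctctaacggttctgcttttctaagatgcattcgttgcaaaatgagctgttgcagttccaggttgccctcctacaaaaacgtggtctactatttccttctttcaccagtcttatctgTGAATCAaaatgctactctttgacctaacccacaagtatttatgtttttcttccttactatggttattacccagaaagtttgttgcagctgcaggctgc
Gpr183 (chr14:121965194-121965443, minus strand): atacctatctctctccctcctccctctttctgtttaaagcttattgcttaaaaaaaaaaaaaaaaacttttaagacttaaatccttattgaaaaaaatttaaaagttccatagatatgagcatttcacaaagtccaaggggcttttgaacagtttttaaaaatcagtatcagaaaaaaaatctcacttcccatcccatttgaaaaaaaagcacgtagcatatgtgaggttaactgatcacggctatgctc
Sucnr1 (chr3:60081619-60081868, plus strand): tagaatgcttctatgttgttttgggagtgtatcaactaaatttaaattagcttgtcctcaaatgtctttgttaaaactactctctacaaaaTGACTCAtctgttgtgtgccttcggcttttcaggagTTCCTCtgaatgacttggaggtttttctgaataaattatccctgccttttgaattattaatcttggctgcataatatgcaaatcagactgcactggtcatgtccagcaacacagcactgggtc
Capitals in P2ry10 and in the first block of Sucnr1 mark TGANTCA, the AP-1 site, and those in the second block of Sucnr1 mark the PU.1 core GAGGAA on the opposite strand. Both strands were searched for 4 motifs: these 2, the NF-kB consensus and the interferon-stimulated response element. The Gpr183 window held no match. Of 32851 RefSeq windows of this length, 6.75% held the AP-1 site, 23.3% the PU.1 core, 7.25% the NF-kB consensus and 2.98% the interferon-stimulated response element. Windows were found for 6 members (10 windows in all). The NF-kB consensus was found in the P2ry12 window alone, at position -51 from the start, and the interferon-stimulated response element in none. P2ry13 held the PU.1 core, as did a further window of P2ry10 and each of the 4 windows of P2ry14, of which 2 held the AP-1 site as well. A pair of these P2ry14 windows overlaps, and the same PU.1 site is read in both. A match is a string of letters and not a measured binding site.

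Gpr183 was higher after treatment in both genotypes and lower in aly in both conditions. Its level was 380.6, 887.4 and 778.5 in untreated WT (682 ± 267, SD, n = 3 as in all groups below) and 2131.2, 3299.3 and 4761.8 in treated WT (3397 ± 1318). In aly it was 190.6, 192.6 and 263.1 without treatment (215 ± 41.3) and 305.5, 314.6 and 530.3 with it (384 ± 127). All 3 treated WT arrays lay above every other array, and the untreated aly arrays lay below every other array. Treated aly arrays overlapped those of untreated WT. The log2 difference with treatment was 2.30 ± 0.42 in WT (4.93-fold) and 0.76 ± 0.42 in aly (1.69-fold). Aly minus WT was -1.52 ± 0.42 without treatment and -3.06 ± 0.42 with it (8.37-fold lower). With any 1 array left out, the treated difference lay between -3.36 and -2.78, and over all alternatives between -3.41 and -2.25.

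The second Gpr183 probe set agreed in direction and differed in size. It read 306.9, 556.4 and 328.7 in untreated WT, 983.2, 973.1 and 2075.8 in treated WT, 205.5, 144.5 and 116.3 in untreated aly, and 762.5, 264.8 and 465.1 in treated aly. Treated WT was again above all other arrays, and treated aly replicate 1 was the highest of the aly arrays. On this probe set the treatment difference was 1.67 ± 0.45 in WT and 1.49 ± 0.45 in aly. Aly minus WT among treated arrays was -1.43 ± 0.45 and was not called when probe sets were fitted singly. It was -0.36 for replicate 1 and -1.97 for replicates 2 and 3. The Gpr183 call between treated genotypes was thus made on the first probe set and not on the second alone. With the mean of a gene's probe sets, 2 members were called in this contrast, as in the main fit. The probe sets correlated at r = 0.87 over 12 arrays, and at 0.95 without treated aly replicate 1. The response of aly minus that of WT was -1.54 ± 0.59 on the first probe set and -0.18 ± 0.63 on the second, so the size of the Gpr183 response in aly depends on the probe set read.

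P2ry10, the lysophosphatidylserine receptor found mainly on leukocytes, was higher with treatment in both genotypes and lower in aly in both conditions. Untreated WT arrays read 904.7, 945.8 and 1343.5 (1065 ± 242) and treated WT arrays 2439.9, 2894.6 and 3529.8 (2955 ± 547). Untreated aly arrays read 281.2, 314.8 and 230.2 (275 ± 42.6) and treated aly arrays 423.7, 1007.3 and 1143.1 (858 ± 382). All untreated aly arrays were the lowest and all treated WT arrays the highest, with treated aly overlapping untreated WT. The treatment difference was 1.47 ± 0.40 in WT (2.76-fold) and 1.48 ± 0.40 in aly (2.78-fold). Their difference was 0.01 ± 0.56, with a 95% interval from -1.18 to 1.20. That difference was -0.85 for replicate 1 and 0.44 for replicates 2 and 3, where the treatment difference in aly was 0.57 and 1.93. Aly minus WT was -1.88 ± 0.40 without treatment (3.68-fold lower) and -1.87 ± 0.40 with treatment (3.65-fold lower).

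Single arrays carried weight for P2ry10. Leaving out any 1 of the 6 WT arrays moved its WT treatment difference no further than 1.33 to 1.64, and the call was lost each time. In untreated mice the genotype call was lost without any 1 of the 6 untreated arrays (-1.98 to -1.70) and without treated WT replicate 2 or 3, which leave its value at -1.88. The call between treated genotypes was lost without treated WT replicate 3 (-1.73). The treatment difference in aly was 1.91, and called, without treated aly replicate 1. The neighbouring copy P2ry10b, named after its values were seen, has a probe set of its own and did not follow P2ry10: it read 91.8, 82 and 56.9 in untreated WT and 2.1, 22.2 and 24.4 in treated WT, a log2 difference of -1.60 ± 0.48.

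Gpr34, the other lysophosphatidylserine receptor, went the opposite way to P2ry10 with treatment. It read 610.3, 369.2 and 477.2 in untreated WT (486 ± 121) and 1.6, 70.2 and 1.3 in treated WT (24.4 ± 39.7). In aly it read 127.7, 119.1 and 261.5 without treatment (169 ± 79.9) and 40.8, 59.1 and 40 with it (46.6 ± 10.8). Untreated WT arrays were above all others, and both genotypes were lower with treatment with no overlap. Treated WT replicate 2 stood well above the other treated WT arrays, which were the lowest of all 12. In WT the log2 difference with treatment was -4.05 ± 0.53, a 16.6-fold lower level on the scale with 16 added, and it lay between -4.82 and -3.66 with any 1 array left out. Treated WT replicates 1 and 3 lie below the added 16, so the size of the fold depends on it: the difference ran from -5.99 to -2.70 over all alternatives. In aly the treatment difference was -1.50 ± 0.53. Aly was lower without treatment (-1.49 ± 0.53), while the treated groups overlapped (1.06 ± 0.53, or 1.83 and called without treated WT replicate 2). The response of aly minus that of WT was 2.55 ± 0.75. In bulk samples such as these, fewer cells of a type that carries the transcript and less RNA per cell cannot be told apart. The cDC1 marker genes also differed with treatment. In WT, 6 of 9 were called lower (4.75% of all genes) and 1 higher (4.95%). In aly 0 were called, while 7 were lower and 1 higher without overlap (8.56% and 6.02% of all genes). Their summed intensity in WT was 14684.6 to 24904.2 untreated and 4742.4 to 9768.1 treated. In aly it was 22399.3 to 24906 untreated and 4254.2 to 16348.9 treated. The part of these changes in the Gpr34 values was not tested.

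**Figure D2:**
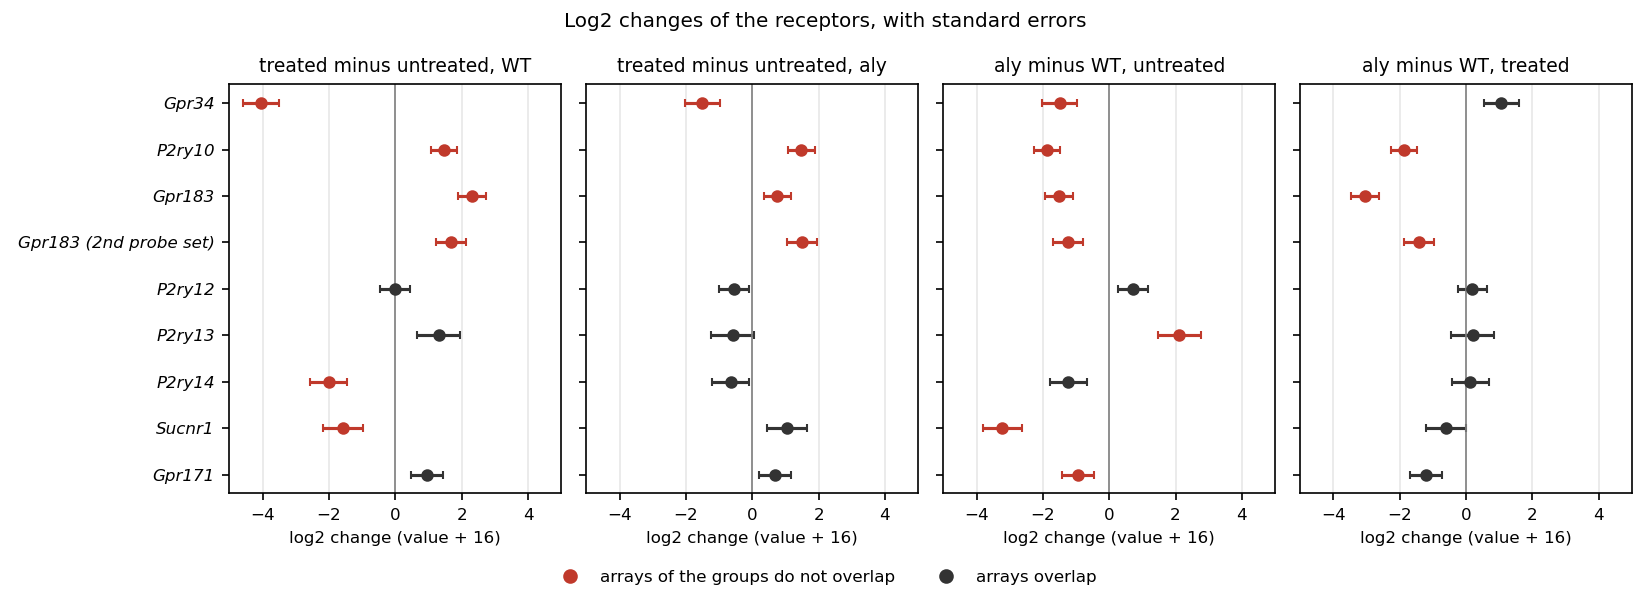
Log2 differences of the receptors in the 4 contrasts, as points with the standard error of the fit (horizontal axis: log2 change of value + 16). Red marks members whose arrays did not overlap between the groups compared; Gpr34 is furthest to the left with treatment in WT, and P2ry10 and Gpr183 are to the left in both genotype comparisons.

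Among the nucleotide receptors, P2ry14, which responds to UDP-glucose, was lower in treated WT DCs. It read 1286.2, 484.4 and 2290.7 in untreated WT (1354 ± 905) and 467.5, 340.1 and 118 in treated WT (308 ± 177). In aly it read 557.4, 471.9 and 399.3 without treatment (476 ± 79.1) and 223.5, 217.2 and 527.3 with it (323 ± 177). The WT groups did not overlap, although untreated replicate 2 and treated replicate 1 were close, and the aly groups overlapped. The difference was -2.01 ± 0.56 in WT and -0.65 ± 0.56 in aly. The WT call was lost without untreated WT replicate 1 (-1.92), untreated WT replicate 3 (-1.50) or treated WT replicate 3 (-1.47). Aly minus WT was -1.23 ± 0.56 untreated and 0.13 ± 0.56 treated. In the latter comparison the sign differed between replicate 1 (-1.01) and replicates 2 and 3 (0.70), and it turned to -0.22 with arrays centred on their medians.

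P2ry13, an ADP receptor, had its highest mean level in untreated aly. It read 544.6, 99.6 and 96.5 in untreated WT (247 ± 258) and 700.7, 708.4 and 1106.1 in untreated aly (838 ± 232), with no overlap. With treatment it read 1213.4, 294.5 and 277.7 in WT (595 ± 535) and 264.3, 698.7 and 835.1 in aly (599 ± 298). Replicate 1 was the highest of the WT arrays in both conditions and the lowest of the treated aly arrays. The untreated genotype difference was 2.11 ± 0.65, or 2.87 and called without untreated WT replicate 1. It was 0.35 between the arrays of replicate 1 and 2.98 within replicates 2 and 3. Among treated arrays the difference was 0.20 ± 0.65, with -2.13 for replicate 1 and 1.37 for replicates 2 and 3. Treatment gave 1.31 ± 0.65 in WT and -0.59 ± 0.65 in aly, both with overlap.

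Red pulp macrophage transcripts also differed between the arrays. Of 12 marker genes of these cells, 7 were called higher (0.499% of all genes) and 0 lower (0.0533%) in untreated aly. Among treated arrays 5 were called higher in aly (2.74% of all genes) and 0 lower (2.64%). With arrays centred on their medians, 0 of all genes were called between untreated genotypes, so those 7 calls were lost. Summed over the 12 marker genes, intensity was 2438 to 15802.2 in untreated WT and 39963.6 to 62589.6 in untreated aly. It was 2466.9 to 14580.6 in treated WT and 27699.5 to 52994.2 in treated aly. No marker of the list was at 0. C1qa, a complement subunit, read 637.8, 35.2 and 54.6 in untreated WT and 1186.5, 321.3 and 182 in treated WT, so replicate 1 was the highest WT array for it as for P2ry13. In aly C1qa read 5171.5, 2700.9 and 2454.1 without treatment and 5449.3, 3193.7 and 2258.9 with it. There replicate 1 was the highest array for C1qa and the lowest for P2ry13 in both conditions. Of the 12 marker lists read, others differed as well. All 4 measured erythroid genes were higher without overlap in untreated aly (12.9% of all genes). Summed neutrophil genes (13749.3) and marginal zone macrophage genes (31699.2) were highest on treated aly replicate 1. The part of these macrophage and other transcripts in the values of P2ry13, or in the lower values of other members in aly, was not tested.

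**Figure D3:**
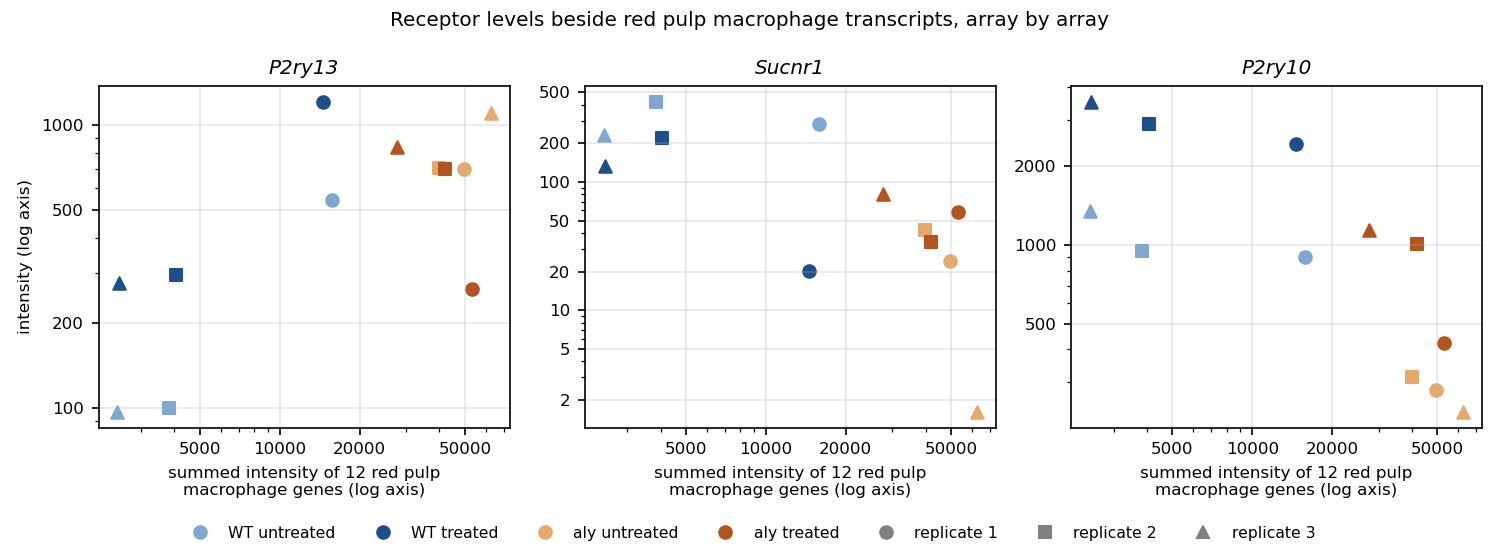
Intensity of P2ry13, Sucnr1 and P2ry10 on each array against the summed intensity of 12 red pulp macrophage genes (both log axes), with colour giving the group and symbol the replicate number. The aly arrays lie at 27699.5 or more on the horizontal axis and the WT arrays at 15802.2 or less; among WT arrays replicate 1 lies furthest to the right and has the highest P2ry13.

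P2ry12, the platelet and microglial ADP receptor, gave low readings throughout. It read 44.3, 10.9 and 5 in untreated WT, 20.1, 17.2 and 11.4 in treated WT, 28, 18.7 and 83.1 in untreated aly and 22.9, 14.2 and 25.8 in treated aly. All groups overlapped, and 7 of 12 arrays exceeded the 40th percentile of their array. Differences were -0.02 ± 0.45 (WT treatment), -0.54 ± 0.45 (aly treatment), 0.72 ± 0.45 (untreated genotype) and 0.19 ± 0.45 (treated genotype). The WT treatment difference was -0.74 for replicate 1 and 0.34 for replicates 2 and 3, and the untreated genotype difference was -0.45 and 1.30. The former changed sign to 0.43 without untreated WT replicate 1, and the treated genotype difference to -0.16 with arrays centred on their medians.

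Sucnr1, the succinate receptor, was lowest in untreated aly DCs. It read 285.5, 424.1 and 232.4 in untreated WT (314 ± 99) and 24, 42.4 and 1.6 in untreated aly (22.7 ± 20.4). With treatment it read 20.1, 218.4 and 134.2 in WT (124 ± 99.5) and 58.3, 34.2 and 80 in aly (57.5 ± 22.9). Untreated WT lay above all other arrays, and treated WT replicate 1 lay below every treated aly array. Untreated aly minus WT was -3.22 ± 0.60, a 9.29-fold lower level on the scale with 16 added. The untreated aly values lie near that 16, and the difference ran from -4.43 to -2.12 over all alternatives. This call was lost without untreated WT replicate 2 (-2.99) or 3 (-3.40), or without untreated aly replicate 1 (-3.32), 2 (-3.60) or 3 (-2.73). Treatment gave -1.57 ± 0.60 in WT and 1.04 ± 0.60 in aly, and the response of aly minus that of WT was 2.61 ± 0.84. The WT treatment difference was -0.77 without treated WT replicate 1 and -2.12, and called, without treated WT replicate 2. The treated genotypes overlapped (-0.61 ± 0.60), with 1.04 for replicate 1 and -1.43 for replicates 2 and 3.

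Gpr171, the receptor for the proSAAS peptide BigLEN, resembled Gpr183 with smaller differences. It read 175.5, 179.4 and 405.4 in untreated WT (253 ± 132), 250.9, 589.8 and 693.3 in treated WT (511 ± 231), 136.4, 108.2 and 98.7 in untreated aly (114 ± 19.6) and 255.9, 93.6 and 285.8 in treated aly (212 ± 103). Untreated aly lay below untreated WT on every array, and in the other 3 comparisons the groups overlapped. Differences were 0.95 ± 0.48 with treatment in WT, 0.68 ± 0.48 with treatment in aly, -0.95 ± 0.48 between untreated genotypes and -1.22 ± 0.48 between treated genotypes. The last was 0.03 for replicate 1 and -1.85 for replicates 2 and 3.

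Group means ordered the receptors in different ways. Treated WT was the highest group for P2ry10, Gpr183 and Gpr171, untreated WT for Gpr34, P2ry14 and Sucnr1, and untreated aly for P2ry12 and P2ry13. The highest group did not overlap the next one for P2ry10, Gpr183, Gpr34 and Sucnr1, and it overlapped the next one for P2ry14, P2ry12, P2ry13 and Gpr171. Over 12 arrays, Gpr171 correlated with Gpr183 at r = 0.84 and with P2ry10 at 0.79, Gpr34 with P2ry14 at 0.72, and P2ry13 with P2ry12 at 0.65. P2ry13 and Sucnr1 had r = -0.79, the lowest of the pairs.

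In the RefSeq annotation (GRCm38.p6), Gpr171, P2ry14, P2ry13, P2ry12 and Sucnr1 lie on chromosome 3. Among these, the log2 difference with treatment in WT was -2.01 for P2ry14 and 1.31 for P2ry13, the latter with overlapping groups. Gpr34 and P2ry10 are on the X chromosome and Gpr183 on chromosome 14, whereas Map3k14 is on chromosome 11. Gpr18, the gene next to Gpr183, was tested with the related receptors below.

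The genes whose log2 values over the 12 arrays were most like each receptor are given with r, as a description. For Gpr183 they were Crebl2 (r = 0.965) and Cd274, the gene of the inhibitory ligand PD-L1 (0.962). For P2ry10 they were Ywhaq, a 14-3-3 protein gene (0.948), and Idi1, an isoprenoid synthesis gene (0.943), and for Gpr171 Acvr2a, an activin receptor (0.941), and Phf11d (0.918). Cd274 followed the Gpr183 order, with mean log2 values of 9.35 in untreated WT, 11.90 in treated WT, 7.83 in untreated aly and 8.74 in treated aly. Gpr34 was most like Cep68 (0.976) and B3galnt2 (0.962), P2ry14 like Vps45 (0.911) and Cfap97 (0.887), and Sucnr1 like Slamf6 (0.936) and Gm11772 (0.901). P2ry13 was most like Kitl, the ligand of Kit (0.962), and Axl, a receptor of the red pulp macrophage marker list (0.921). P2ry12 was most like Lyve1 (0.864) and Fabp12 (0.859).

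Related receptors, ligand enzymes and signalling genes were read from 10 lists by role, with 119 genes listed, 106 on the array and 96 in the fit. With treatment of WT mice, 6 of the 96 rose and 13 fell, against 4.95% and 4.75% of all genes. In aly DCs 0 of the 96 were called with treatment by limma, and 25 passed an unadjusted p under 0.05, against 12.9% of all genes. Between untreated genotypes 0 were called by limma and 12 passed an unadjusted p under 0.05, against 10.5% of all genes. Between treated genotypes 1 was higher and 7 lower in aly, against 2.74% and 2.64% of all genes. The interaction called 1 gene of the 96, Pla1a, against 0.153% of all genes. The lists were chosen with earlier results of these data known. Nothing is therefore read from these counts or from those of single lists below.

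Pla1a, a secreted phospholipase that makes lysophosphatidylserine, the ligand of Gpr34 and P2ry10, was called in 3 of the 5 contrasts. It read 20.3, 28.6 and 21.2 in untreated WT and 4427.2, 1307.5 and 2680.9 in treated WT. In aly it read 33.4, 17 and 67.2 without treatment and 412.6, 160 and 153.8 with it. All treated WT arrays lay above all treated aly arrays, which lay above all untreated arrays. In WT Pla1a rose by 6.00 ± 0.49 on the log2 scale (64.1-fold, limma adjusted p = 2.2e-06), a fold that rests on untreated values near the added 16. In aly the difference was 2.19 ± 0.49 (adjusted p = 0.069), and treated aly was 10.7-fold lower than treated WT (-3.42 ± 0.49, adjusted p = 0.002). The response of aly minus that of WT was -3.82 ± 0.70 (adjusted p = 0.046). That last call held in 2 of 12 fits with 1 array left out, and in the other 10 the value was -4.13 to -3.40 with an adjusted p of 0.078 to 0.23.

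Of 5 measured genes of lysophosphatidylserine and lysophosphatidic acid metabolism, Pla1a was the only one called. Among the 4 oxysterol enzymes that make and degrade the ligand of Gpr183, Cyp27a1, a sterol hydroxylase, fell in WT with treatment (-2.70 ± 0.73, 6.52-fold, limma adjusted p = 0.029). That call was lost without any 1 of the 3 untreated WT arrays, treated WT replicate 1 (-2.06) or treated WT replicate 3 (-2.61). Ch25h, which makes the first ligand precursor, had a difference of 1.17 ± 0.56 in WT and 1.5 ± 0.56 in aly. Cyp7b1, which completes the ligand, had 1.19 ± 0.49 and 0.94 ± 0.49. Hsd3b7, which degrades it, had 0.02 ± 0.44 and -0.96 ± 0.44. These 3 did not pass the test in any contrast (adjusted p of 0.15 to 1 over them).

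Of 14 measured receptors of the same branch, 3 fell (4.75% of all genes) and 0 rose (4.95%) in WT with treatment. P2ry6, the UDP receptor, read 449.8, 595.8 and 722 in untreated WT and 15, 223.5 and 2.8 in treated WT, and fell by 3.52 ± 0.71 on the log2 scale (11.5-fold, limma adjusted p = 0.0052). Lpar6, a lysophosphatidic acid receptor, fell by 2.47 ± 0.56 (adjusted p = 0.011), and Cysltr1, a leukotriene receptor, by 1.97 ± 0.40 (adjusted p = 0.0049). The Lpar6 call was lost without untreated WT replicate 3 (-1.94), treated WT replicate 1 (-2.04) or treated WT replicate 3 (-2.24). P2ry6 and Cysltr1 remained called in each of the 12 fits with 1 array left out. In aly the 3 differences were -1.48 ± 0.71, -1.48 ± 0.56 and -1.0 ± 0.40, with no call.

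Between treated genotypes, 2 of the 14 were lower in aly (2.64% of all genes). Gpr18, the receptor gene next to Gpr183, read 1608.6, 1558.1 and 2064.6 in treated WT and 489.6, 258 and 507.1 in treated aly. It was lower in aly by a log2 difference of -2.07 ± 0.40 (4.19-fold, limma adjusted p = 0.0097), with no overlap. Gpr18 also lay lower in untreated aly on every array, without passing the test (-1.33 ± 0.40, adjusted p = 0.18), and its difference with treatment was 0.64 ± 0.40 in WT and -0.09 ± 0.40 in aly. Gpr4, a proton-sensing receptor, was lower in treated aly by a log2 difference of -2.09 ± 0.47 (adjusted p = 0.019). Both calls were lost without treated WT replicate 3 (-1.94 and -2.03). Gpr174, a further lysophosphatidylserine receptor beside P2ry10 on the X chromosome, had differences of -0.20 to 0.21 over the 5 contrasts and no call.

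Of 10 measured enzymes and release channels of nucleotide handling, 3 fell (4.75% of all genes) and 0 rose (4.95%) in treated WT. Entpd5 and Entpd1, which cleave nucleotides, fell by 1.73 ± 0.39 and 1.51 ± 0.38 on the log2 scale (limma adjusted p = 0.01 and 0.019). Adenosine kinase Adk fell by 1.89 ± 0.53 (limma adjusted p = 0.035). P2rx7, an ATP-gated channel, was the 1 of 8 P2X and adenosine receptors that fell (1.62 ± 0.35 lower, adjusted p = 0.0081). These calls were lost without untreated WT replicate 3 or treated WT replicate 3 in each case (log2 -1.62 to -1.29), for Entpd5 also without untreated WT replicate 1 (-1.65). For Adk they were also lost without untreated WT replicate 1 (-1.86) or treated WT replicate 1 (-1.94), and for Entpd1 without untreated WT replicate 2 (-1.44) or treated WT replicate 1 (-1.49). None of the 4 UDP-sugar genes and of the proSAAS peptide genes (1 measured) was called in any contrast.

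Of 9 succinate genes, Acod1, whose product itaconate inhibits succinate dehydrogenase, rose in WT with treatment and no other was called. It read 2.9, 3.2 and 6.2 in untreated WT and 3010.1, 301.3 and 353.8 in treated WT, a difference of 5.14 ± 1.13 (limma adjusted p = 0.0091). The untreated WT values of Acod1 lie below the added 16, and this difference ran from 3.51 to 7.13 over all alternatives. In aly it read 14, 13.5 and 61 without treatment and 15606.1, 721.1 and 183.6 with it, a difference of 5.01 ± 1.13 (adjusted p = 0.069). This aly difference was 3.23 without treated aly replicate 1 and 6.38 without treated aly replicate 3. It was called in 2 of the 12 fits with 1 array left out. The WT call was lost without treated WT replicate 1 (4.09, adjusted p = 0.059).

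**Figure D4:**
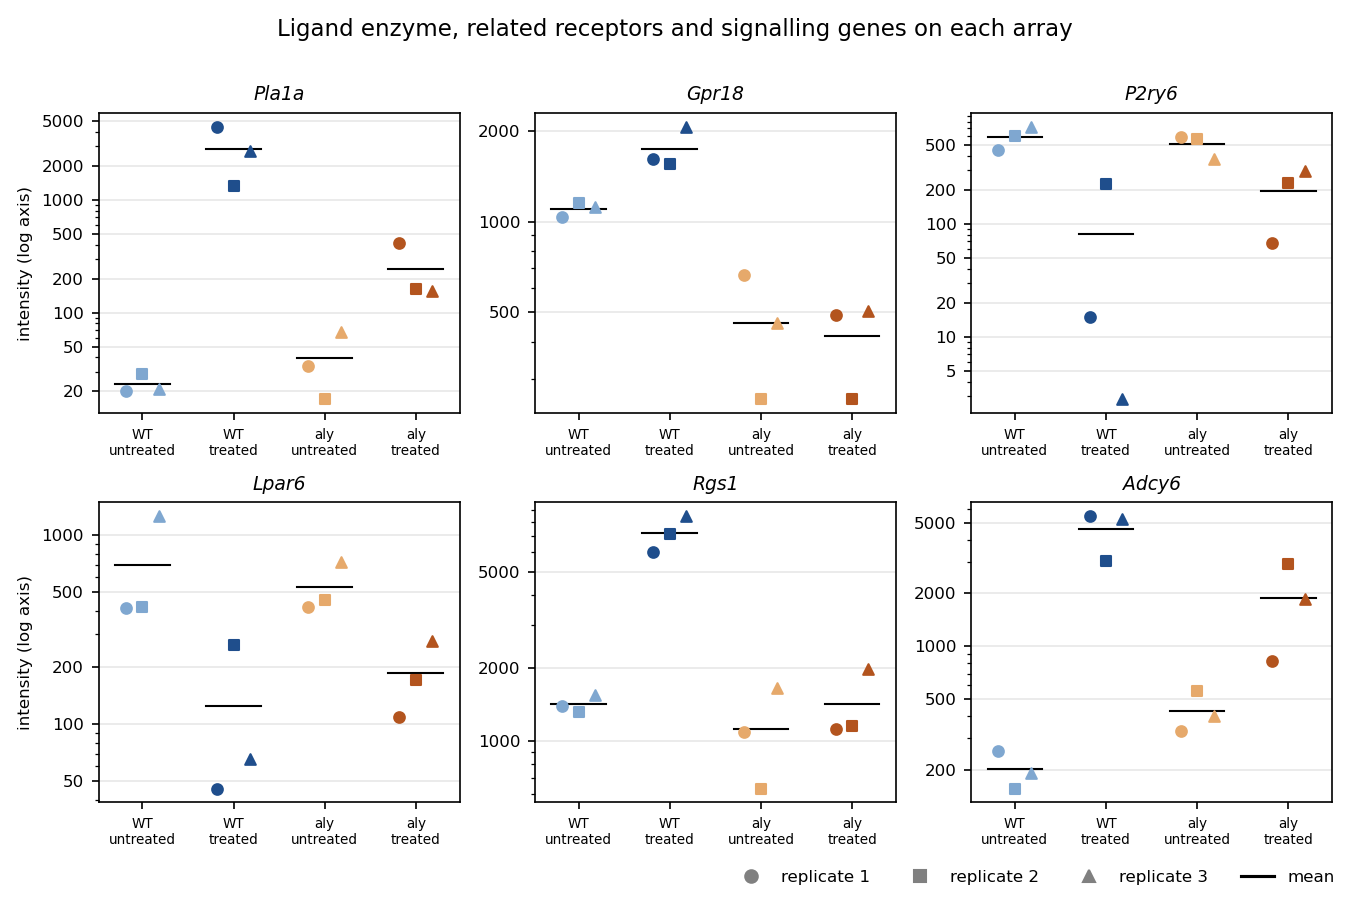
Intensity of 6 genes of the receptor pathways on each array (log axes), by group; points are arrays and the line is the mean of 3. Pla1a, Rgs1 and Adcy6 are highest in treated WT, Gpr18 is lower in aly in both conditions, and P2ry6 and Lpar6 are lower in treated than in untreated WT.

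Downstream of the receptors, 3 of 28 G protein subunits and effectors rose in treated WT (4.95% of all genes) and 1 fell (4.75%). Adcy6, an adenylate cyclase that inhibitory G proteins restrain, rose by 4.39 ± 0.45 (21-fold, limma adjusted p = 1.4e-05), the beta subunit Gnb4 by 3.13 ± 0.43 (adjusted p = 0.00019) and Pik3r5, a subunit of PI3-kinase gamma, by 2.31 ± 0.41 (adjusted p = 0.002). The gamma subunit Gng2 fell by 2.36 ± 0.53 (adjusted p = 0.01), a call lost without untreated WT replicate 1 or 3 or treated WT replicate 1 or 3 (-2.29 to -2.11). Between treated genotypes Gnb4 was lower in aly (-2.17 ± 0.43, adjusted p = 0.011), and so was the inhibitory subunit Gnai3 (-3.27 ± 0.75, adjusted p = 0.021). Another Gnai3 probe set gave -0.93. Adcy3 was higher (1.68 ± 0.41, adjusted p = 0.027). Without treated WT replicate 3 these calls were lost (-2.0, -3.07 and 1.53), that of Gnai3 also without treated WT replicate 1 (-3.26) and that of Adcy3 also without treated WT replicate 2 (1.67) or treated aly replicate 2 (1.52). Without treated aly replicate 1 Gnai3 was -2.07.

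Among 13 measured regulators of receptor signalling, 1 rose in WT with treatment (4.95% of all genes) and 4 fell (4.75%). The gene that rose was Rgs1, which ends signalling by inhibitory G proteins and restrains migration of lymphocytes. Rgs1 read 1388.7, 1313.7 and 1546.7 in untreated WT and 6031.2, 7170.1 and 8499.8 in treated WT, a rise of 2.33 ± 0.39 (5.02-fold, limma adjusted p = 0.0013). In treated aly it read 1115, 1150.9 and 1988.3, and was lower than in treated WT by a log2 difference of -2.38 ± 0.39 (5.19-fold, adjusted p = 0.0046). Both Rgs1 calls held with any 1 array left out. Treated WT lay above all other arrays for Rgs1, as for both Gpr183 probe sets. Rgs14, Rgs2, Rgs10 and Rgs18 fell in WT by 1.68 ± 0.45, 2.19 ± 0.58, 1.45 ± 0.40 and 2.53 ± 0.74 on the log2 scale (adjusted p of 0.026 to 0.041). Each of these 4 calls was lost without any 1 of the 3 untreated WT arrays, treated WT replicate 1 or treated WT replicate 3 (values over them of -2.77 to -1.23), and that of Rgs18 also without any 1 untreated aly array. Grk5, a receptor kinase, was lower in treated aly (-1.57 ± 0.40, adjusted p = 0.034), which held in 5 of 12 fits with 1 array left out (-1.98 to -1.16 over all 12).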

How the data were processed

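The deposited values are intensities, 1 per probe set and array, on a linear scale; their 2% trimmed mean was 150.001 on every array, and software, background step and annotation build are unknown (not given in the sources used here). Per the labels, RNA was amplified in 2 rounds before labelling. Array number limits the precision, and 3 arrays a group were available. Of 45101 probe sets, 34945 had 1 gene symbol, 932 several, 9211 none and 64 were controls. A probe set was kept when 3 or more arrays placed it above their own 40th percentile (34205), with each gene represented by its probe set of highest mean log2 value (15019 genes). Values were used as log2(value + 16) without further normalization.

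Models with 1 mean per group were fitted with limma 3.58.1 (R 4.3.3, with the package data.table, version 1.17.8) to all 12 arrays, with 8 residual and 8.04 prior degrees of freedom, after a check on simulated data. Contrasts compared treated with untreated arrays within each genotype, aly minus WT untreated and treated, and the response of aly minus that of WT. Adjusted p-values are Benjamini-Hochberg over all genes, two-sided. The members and lists were chosen with earlier results of these data known. All members are named, with their 2 most correlated genes; from each list up to 4 called genes with the smallest p, and all oxysterol genes. Promoters came from the RefSeq table (GRCm38.p6), trimmed to the 250 bases before the start. Alternatives were an offset of 1 or 64, no filter, median centring, quantile normalization, the mean of a gene's probe sets, only the groups compared, array weights, a block of replicate number or of replicate 1 against 2 and 3 (differing in spike-in levels), replicates 2 and 3 alone, replicate 1 alone (values only) and leaving out each array.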

Additional observations from a re-analysis of the deposited data

Results flagged for a closer look

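The response of Pla1a to treatment was called as different between genotypes, by a call close to the threshold. The response of aly minus that of WT was -3.82 ± 0.70 on the log2 scale (limma interaction term, adjusted p = 0.046, n = 3 arrays per group). All 3 treated WT arrays (1307.5 to 4427.2) lay above all 3 treated aly arrays (153.8 to 412.6). The adjusted p was 0.0056 to 0.23 over the 12 fits with 1 array left out, and the call held in 2 of them. It was also lost with an offset of 1, without the filter, with quantile normalization and with replicates 2 and 3 alone.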

How the results depend on the processing

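Counts are of the 8 members and of the 96 pathway genes, which with all arrays and settings as described were 4 and 19 (WT treatment), 0 and 0 (aly treatment), 2 and 0 (untreated genotype), 2 and 8 (treated genotype), and 0 and 1 (interaction). With an offset of 1, members called were 2 in WT, 0 between untreated and 1 between treated genotypes, and pathway genes were 4 between treated genotypes and 0 in the interaction. An offset of 64 left 0 members between untreated genotypes. Without the filter 1 member was called between untreated genotypes and 0 pathway genes in the interaction. Median centring gave 2 members and 12 pathway genes in WT and 0 members between untreated genotypes. Quantile normalization gave 1 pathway gene in aly and 0 in the interaction. Fitting only the groups compared gave 4 members and 2 pathway genes between untreated, and 1 and 0 between treated genotypes. Array weights gave 29 pathway genes in WT, 1 member and 4 genes in aly, 4 and 6 between untreated, 4 and 31 between treated genotypes, and 1 and 5 in the interaction. A block of replicate 1 against replicates 2 and 3, taken from the spike-in levels since the labels name no batch, gave 2 pathway genes in aly and 1 between untreated genotypes. Replicates 2 and 3 alone gave 4 members and 1 pathway gene between untreated genotypes and 0 genes in the interaction. The cause of these shifts was not tested.

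Leaving out 1 array at a time gave 2 to 4 members and 8 to 25 pathway genes in WT, 0 to 1 and 0 to 1 in aly, 0 to 3 and 0 to 4 between untreated genotypes, 1 to 3 and 2 to 14 between treated genotypes, and 0 to 0 and 0 to 1 in the interaction. The highest count of pathway genes in WT came without treated aly replicate 1, which raised the count over all genes from 1458 to 2886, the largest over these fits. Over all genes the count ran from 589 to 2886 in WT, 14 to 102 in aly, 0 to 400 between untreated and 70 to 1544 between treated genotypes, and 1 to 112 in the interaction. Array weights gave 3370, 164, 617, 2886 and 360 over all genes, and an offset of 1 gave 900, 11, 0, 229 and 1. Of the members' log2 differences under the alternatives, 918 moved by less than the spread between replicates and 34 by more. The 918 include differences that could not move, such as those with an array outside the compared groups left out. They are therefore no measure of stability. The labels do not say whether the replicate numbers pair the arrays. Same-numbered arrays correlated at -0.031 to 0.303 in their deviations from group means (mean 0.111), with 8 of 18 pairs over 0.1. Among them were all 3 between the untreated genotypes (0.156, 0.227 and 0.181), and 9 of 12 arrays correlated best with their own number. The mean for different numbers was -0.055, but deviations cancel within a group, so it is no independent baseline. The replicate block gave 2 pathway genes in aly, and 4, 0, 2, 2 and 0 members in the 5 contrasts. Levels near the added 16 (Gpr34, Sucnr1, Pla1a, Acod1, P2ry6 and Cysltr1 in their low groups, P2ry12 throughout) limit the size of the folds.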
